A study of Mus musculus with 12 samples.

Results

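The interferon-inducible GTPases are described here by 10 genes of the 54833 in the deposited table, chosen by symbol. They are 5 guanylate-binding proteins (GBPs), Gbp2, Gbp3, Gbp5, Gbp6 and Gbp7, and 5 immunity-related GTPases (IRGs), Irgm1, Irgm2, Igtp, Iigp1 and Tgtp2. RNA-seq was performed on perihematomal caudate putamen of male wild-type C57BL/6 mice collected 24 h after surgery, in 4 groups of 3 samples. The young ICH and aged ICH groups received 0.075 U of type IV collagenase in 0.4 µl of saline in the right basal ganglia, which produces an intracerebral hemorrhage (ICH), and the young sham and aged sham groups received the same volume of saline. Young animals were aged 8 to 10 weeks and old animals 20 to 22 months, and no genotype or further agent distinguished the groups. Tissue of 2 or 3 mice made up each sample, so *P* values measure the spread between pools. All groups underwent anesthesia, a burr hole and a needle track, and the sham samples carry those too.

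GBPs and IRGs are GTP-binding proteins of cell-autonomous immunity. Interferons switch their genes on through receptors, Janus kinases and transcription factors, with IFN-γ the classical inducer. GBPs coat the vacuoles or surfaces of intracellular microbes and help to activate the caspase-11 inflammasome, and effector IRGs such as Iigp1 and Tgtp2 load onto such vacuoles. Irgm1, Irgm2 and Igtp, the regulatory IRGs, stay on the membranes of the cell itself and hold the effectors inactive there. In the promoters of such genes, interferons act through the interferon-stimulated response element (ISRE) and the gamma-activated sequence (GAS).

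All 10 genes are annotated as protein coding (GRCm38, GENCODE vM21), and they lie in a few places in the genome. Gbp2, Gbp3, Gbp5 and Gbp7 lie on the plus strand of chromosome 3 within 144 kb, chr3:142493978-142638008. Gbp6 lies apart on the minus strand at chr5:105270702-105293698. Igtp, at chr11:58199556-58207591, and Irgm2, at chr11:58199618-58222782, overlap on the plus strand. Irgm1, at chr11:48861968-48871683, and Tgtp2, at chr11:49057194-49064206, are both on the minus strand.

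The sequence upstream of these genes was inspected for the ISRE core (GAAA, any 2 bases, GAAA) and the GAS (TTCNNNGAA) on both strands of the 250 bases before each RefSeq transcription start (GRCm38.p6). The RefSeq promoter table held 8 of the 10 genes, and Gbp6 and Iigp1 had no entry. An ISRE core was found in 8 of 8, whereas 3.46% of all 27025 genes in the table have it. A GAS was found in 5 of 8, Gbp5, Gbp7, Irgm2, Igtp and Tgtp2, against 8.13% of all genes. Both motifs together were present in 0.332% of all windows. Gbp3 had 2 windows, and the ISRE core was in only the first. The 3 stretches in which the motifs stand closest to each other are shown to allow comparison of the IRG promoters, written 5′ to 3′ along the gene with GAS and ISRE core in capitals.
Igtp (chr11:58199496-58199546, plus strand): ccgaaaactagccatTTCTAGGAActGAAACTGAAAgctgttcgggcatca
Irgm2 (chr11:58214887-58214937, plus strand): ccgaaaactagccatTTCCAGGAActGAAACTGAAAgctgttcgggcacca
Tgtp2 (chr11:49064258-49064308, minus strand): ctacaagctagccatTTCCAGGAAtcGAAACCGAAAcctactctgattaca

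In each of these 3 stretches a GAS was followed after 2 bases by an ISRE core on the same strand. Over the 51 bases shown, Igtp and Irgm2 differed at 2 bases, Igtp and Tgtp2 at 16, and Irgm2 and Tgtp2 at 15. This arrangement was searched for after the stretches had been seen, and it was present in the windows of 5 genes of the 27025. These were Igtp, Irgm2, Tgtp2 and their family members Tgtp1 and Gm12185, which are related in sequence and so are not independent. The Irgm2 window lies inside the longer Irgm2 gene of GENCODE, which starts within Igtp. The 2 genes share exonic bases on the same strand, 8.01% of those of Igtp and 4.39% of those of Irgm2.

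The other arrangement was an ISRE core with no GAS in the window, which is shown for Gbp2, Gbp3 and Irgm1.
Gbp2 (chr3:142620589-142620628, plus strand): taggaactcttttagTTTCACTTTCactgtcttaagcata
Gbp3 (chr3:142559984-142560029, plus strand): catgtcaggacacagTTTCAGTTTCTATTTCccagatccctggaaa
Irgm1 (chr11:48871430-48871455, minus strand): ttcaaGAAATAGAAACCGAAActgat

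In Gbp3 and Irgm1 the capitals cover 2 overlapping ISRE cores, and in Gbp2 and Gbp3 the core reads on the opposite strand. Exons of longer annotated transcripts cover 27 of the bases shown for Gbp2 and 26 of those for Irgm1. Gbp7 carried 2 GAS and an ISRE core in the following stretch, and Gbp5 carried 2 GAS with an ISRE core between them.
Gbp7 (chr3:142530215-142530307, plus strand): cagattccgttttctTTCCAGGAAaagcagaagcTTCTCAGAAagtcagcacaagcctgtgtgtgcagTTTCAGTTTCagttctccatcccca

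A match is a string of letters and was not tested as a binding site.

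**Figure D1:**
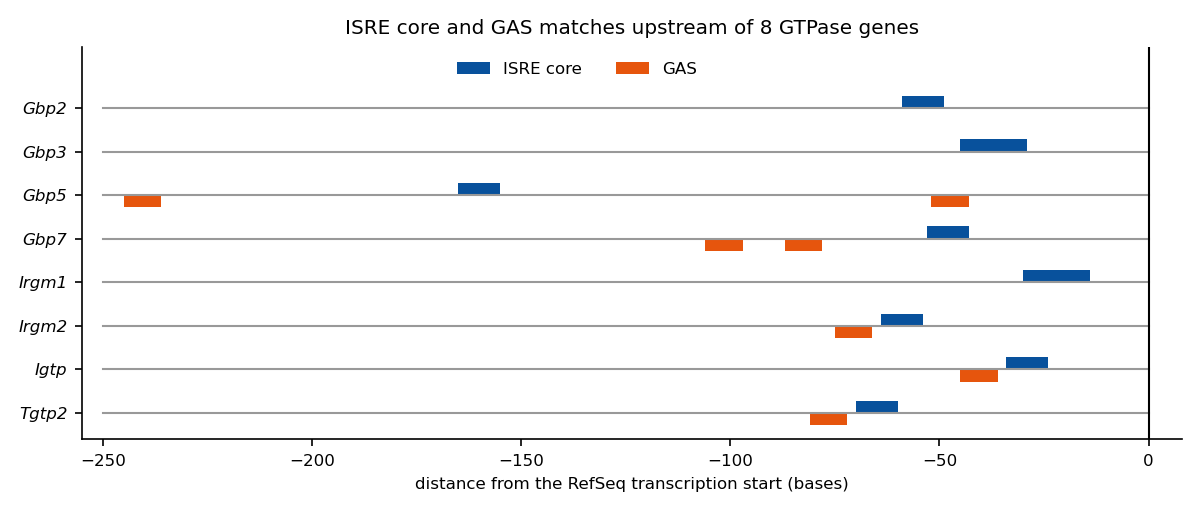
Positions of ISRE core (blue) and GAS (orange) matches in the 250 bases upstream of the RefSeq start of the 8 GTPase genes with a promoter entry; the horizontal axis is the distance from the start in bases. All 8 genes have an ISRE core, 5 also have a GAS, and in Irgm2, Igtp and Tgtp2 the GAS lies 2 bases upstream of the ISRE core.

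Reads counted on genes totalled 28410896 to 37785160 per sample. FPKM, which divides by transcript length, was used to compare levels between genes, and the tests were run on counts, reported as CPM (counts scaled to the normalized library size). Gbp2, Gbp3 and Igtp had the highest FPKM in 11 of the 12 samples, and in the second aged sham sample Irgm1 took the place of Gbp2. Tgtp2 had the lowest FPKM except in that same sample, where Gbp6 was lower. The FPKM of the 10 genes summed to 26.7, 22.5 and 40.5 in the young sham samples and to 58.9, 61.6 and 80.3 in the young ICH samples. It summed to 49.3, 19.0 and 40.8 in the aged sham samples and to 130.4, 77.7 and 111.1 in the aged ICH samples. Every ICH sample of either age was thus above every sham sample, while the lowest aged ICH sample was below the highest young ICH sample. The group means increased from young sham over aged sham and young ICH to aged ICH for 9 of the 10 genes. For Tgtp2 the aged sham mean was above that of young ICH.

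**Figure D2:**
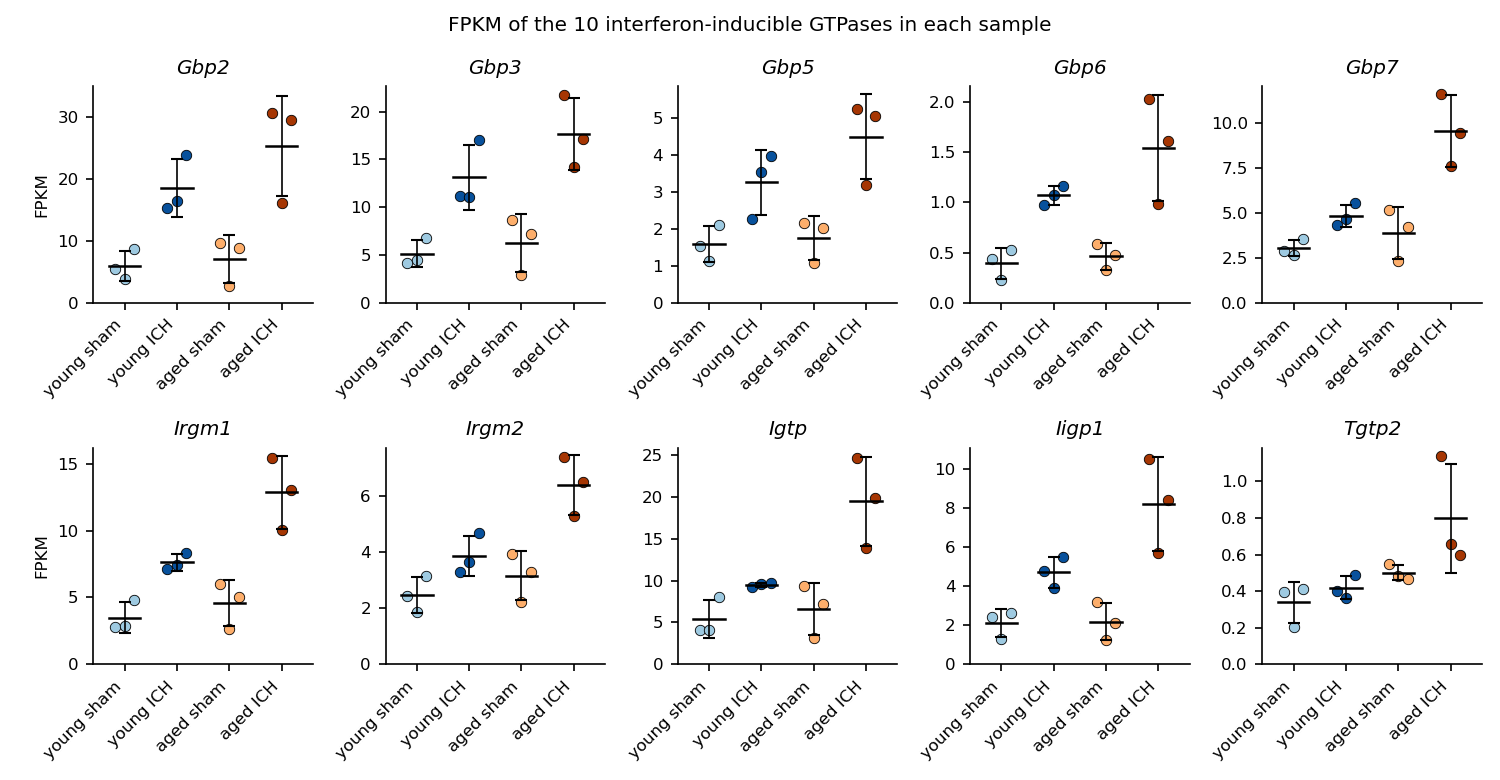
FPKM of each GTPase by sample; points are the 3 samples of each group in the order of their replicate numbers, the horizontal line is the mean and the bar its SD, and vertical scales differ between panels and start at 0. For Gbp7, Irgm1, Irgm2, Igtp, Iigp1 and Tgtp2 all 3 aged ICH samples lie above all other samples.

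Among the GBPs, Gbp2, which is required for the attack on many vacuolar pathogens, was the most abundant. The FPKM of Gbp2 was 5.45, 3.77 and 8.61 in young sham, 15.3, 16.4 and 23.9 in young ICH, 9.69, 2.63 and 8.81 in aged sham and 30.6, 16.1 and 29.5 in aged ICH. The FPKM of Gbp3, also on chromosome 3, was 4.19, 4.44 and 6.72 in young sham, 11.2, 11.1 and 17.1 in young ICH, 8.68, 2.85 and 7.20 in aged sham and 21.7, 14.2 and 17.1 in aged ICH. The ICH samples of both genes lay above the sham samples of the same age, and the ICH samples of the 2 ages overlapped. Gbp5, known for promoting NLRP3 inflammasome assembly, had an FPKM of 1.55, 1.13 and 2.11 in young sham, 2.28, 3.54 and 3.97 in young ICH, 2.16, 1.07 and 2.03 in aged sham and 5.26, 3.19 and 5.07 in aged ICH. Gbp6 remained at low FPKM, at 0.431, 0.223 and 0.523 in young sham, 0.975, 1.07 and 1.17 in young ICH, 0.586, 0.323 and 0.477 in aged sham and 2.03, 0.981 and 1.61 in aged ICH. These levels of Gbp5 and Gbp6 separated ICH from sham at both ages but not aged ICH from young ICH. Gbp7 had an FPKM of 2.87, 2.67 and 3.52 in young sham, 4.35, 4.63 and 5.54 in young ICH, 5.13, 2.31 and 4.20 in aged sham and 11.6, 7.61 and 9.42 in aged ICH. Of the 5 GBPs, Gbp7 was the gene whose aged ICH samples all exceeded the young ICH samples.

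Among the regulatory IRGs, Igtp (also called Irgm3) had the highest FPKM. The FPKM of Igtp was 4.14, 4.10 and 7.98 in young sham, 9.25, 9.61 and 9.68 in young ICH, 9.35, 3.18 and 7.22 in aged sham and 24.6, 13.9 and 19.9 in aged ICH. For Irgm1, which acts on lysosomes and mitochondria and in autophagy, it was 2.80, 2.85 and 4.83 in young sham, 7.10, 7.45 and 8.33 in young ICH, 6.01, 2.65 and 5.04 in aged sham and 15.5, 10.1 and 13.1 in aged ICH. Both genes had aged ICH samples well clear of the other 3 groups. Irgm2 had an FPKM of 2.42, 1.85 and 3.14 in young sham, 3.29, 3.64 and 4.67 in young ICH, 3.94, 2.23 and 3.30 in aged sham and 7.40, 5.28 and 6.48 in aged ICH. Iigp1 (also called Irga6), an effector IRG on the plus strand of chromosome 18 (60376027 to 60392634), had an FPKM of 2.41, 1.27 and 2.60 in young sham, 4.76, 3.90 and 5.47 in young ICH, 3.16, 1.24 and 2.11 in aged sham and 10.5, 5.67 and 8.40 in aged ICH. The lowest aged ICH sample of Iigp1 was close to the highest young ICH sample. Tgtp2 (also called Irgb6), the other effector, had an FPKM of 0.396, 0.206 and 0.411 in young sham, 0.401, 0.365 and 0.488 in young ICH, 0.550, 0.485 and 0.468 in aged sham and 1.14, 0.659 and 0.596 in aged ICH. The sham and ICH samples of young mice overlapped for Tgtp2, and its counts were low, at 20 to 116 per sample.

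The values of Gbp6 and Tgtp2 are less certain than the others, because the sources used here do not state how reads with several alignments were treated. Of all 100-base stretches of their longest transcripts, 82.9% in Gbp6 also occur in the overlapping gene Gm43302 or other GBP genes, and 80.4% in Tgtp2 also occur in Tgtp1 or Gm12185. The table lists Gm43302 at 0 or 1 count per sample, and Tgtp1 at 17 to 153. The share was 10.2% for Gbp7, 5.67% for Igtp and 2.48% for Irgm2, and at most 0.929% for the other 5 genes.

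Firstly, the effect of ICH in young mice was examined by young ICH vs. young sham. 7 of the 10 GTPases were upregulated DEGs (FC > 1.5 with an unadjusted *P* under 0.05), where 8.66% of the 21495 genes tested were upregulated. They were Gbp2, Gbp3, Gbp5, Gbp6, Gbp7, Irgm1 and Iigp1, that is, all 5 GBPs and 2 of the 5 IRGs. Of these, 5 also had a Benjamini-Hochberg adjusted *P* under 0.05 (edgeR's quasi-likelihood test over all genes), as did 9.89% of all genes in this direction. The median log2FC of the 10 genes was 0.99, and that of all genes tested 0.02. Gbp2 rose most, from 15.6 to 45.7 CPM (log2FC 1.55 ± 0.43, SE; adjusted *P* = 0.0291). Gbp6 followed with a log2FC of 1.36 ± 0.33 (adjusted *P* = 0.0149), Gbp3 with 1.27 ± 0.34 (adjusted *P* = 0.0254), Iigp1 with 1.08 ± 0.34 (adjusted *P* = 0.0460) and Irgm1 with 1.04 ± 0.28 (adjusted *P* = 0.0255). Gbp5 (log2FC 0.94 ± 0.31, adjusted *P* = 0.0527) and Gbp7 (0.59 ± 0.24, adjusted *P* = 0.115) passed only the unadjusted threshold. The call of Gbp7 was at the edge of the fold required, with a fold of 1.505, and it was lost with DESeq2, with RLE scaling and with limma on log2(FPKM + 1), the last of which also lost Gbp6.

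The other 3 genes were not DEGs in young mice. Igtp had a log2FC of 0.73 ± 0.35 (unadjusted *P* = 0.0624, adjusted *P* = 0.174, edgeR) with every ICH sample above every sham sample, Irgm2 one of 0.55 ± 0.23 (adjusted *P* = 0.117), just short of the fold required, and Tgtp2 one of 0.22 ± 0.31 (adjusted *P* = 0.667). Young ICH samples did not overlap young sham samples for 8 of the 10 genes, which held for 18.5% of all genes tested. The third young sham sample had the highest FPKM of all 10 genes within its group and the second had the lowest of 8. Without the second, 6 genes were DEGs and none passed the adjusted threshold (lowest adjusted *P* = 0.0569), and without the first, or without the third young ICH sample, 1 gene did.

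Secondly, aged ICH vs. aged sham was examined. All GTPases except Tgtp2 were upregulated DEGs, 9 of 10, where 7.24% of all genes were upregulated, and the same number had an adjusted *P* under 0.05 (7.00% of all genes). The median log2FC was 1.43, against 0.00 over all genes tested. Iigp1 rose most, from 6.88 to 24.7 CPM (log2FC 1.84 ± 0.34, adjusted *P* = 0.00845), and Gbp2 rose from 18 to 61.7 CPM (1.78 ± 0.43, adjusted *P* = 0.0222). The remaining GBPs had log2FC of 1.67 ± 0.32 for Gbp6, 1.43 ± 0.34 for Gbp3, 1.29 ± 0.31 for Gbp5 and 1.23 ± 0.24 for Gbp7, with adjusted *P* between 0.00991 and 0.0205. Among the regulatory IRGs, the log2FC was 1.49 ± 0.35 for Igtp (adjusted *P* = 0.0201), 1.42 ± 0.28 for Irgm1 (adjusted *P* = 0.0102) and 0.95 ± 0.23 for Irgm2 (adjusted *P* = 0.0218). Tgtp2 had a log2FC of 0.60 ± 0.29 (adjusted *P* = 0.194). For all 10 genes, Tgtp2 included, every aged ICH sample was above every aged sham sample, which held for 17.8% of all genes tested.

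The aged samples differed among themselves in concert. The first aged sham sample had the highest FPKM of all 10 genes in its group and the second the lowest of 9, and the same numbers held for the first and second aged ICH samples. Without the first aged ICH sample 9 genes were DEGs but 2 passed the adjusted threshold, and without the third 10 were DEGs and 4 passed it. Leaving out the second sham sample of both ages, an alternative chosen after the data had been seen, gave 6 DEGs in young mice and 9 in aged mice, of which 4 and 6 passed the adjusted threshold.

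**Figure D3:**
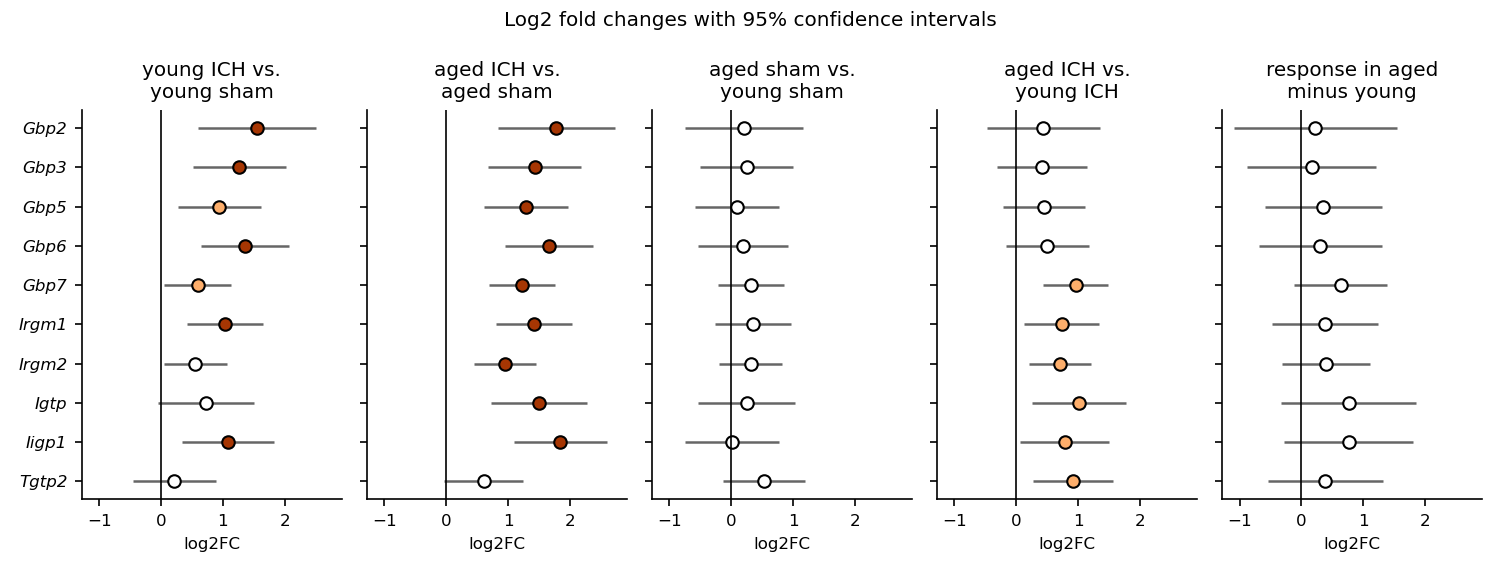
Log2FC of each GTPase in the 4 comparisons and in the difference of the responses to ICH; bars are 95% confidence intervals from the edgeR fit, dark points have an adjusted P under 0.05, light orange points are DEGs by fold and unadjusted P only, and white points are neither. Every point is above 0; the dark points are 5 in young ICH vs. young sham and 9 in aged ICH vs. aged sham.

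Age alone was then examined by aged sham vs. young sham. None of the 10 GTPases was a DEG, and 2.82% of all genes were upregulated DEGs. All 10 log2FC were above 0, from 0.01 for Iigp1 to 0.53 for Tgtp2, with a median of 0.25, and the smallest unadjusted *P* was 0.110 (Tgtp2, edgeR, adjusted *P* = 0.507). DESeq2 also called 0 of the 10. For Tgtp2 every aged sham sample was above every young sham sample, which held for 9.81% of all genes tested, and for the other 9 genes the groups overlapped. The intervals were wide, for example from -0.74 to 1.16 in log2FC for Gbp2 and from -0.22 to 0.86 for Gbp7, so differences of this size could not be detected in these samples. The sign of the difference was carried by single samples in 6 genes, since without the first aged sham sample the log2FC of Gbp2, Gbp3, Gbp5, Gbp6, Igtp and Iigp1 fell below 0. Without the second aged sham sample 2 genes became DEGs, Gbp3 and Irgm1, and without the third young sham sample Irgm1 alone did.

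In aged ICH vs. young ICH, 6 GTPases were upregulated DEGs in the aged mice, where 2.21% of all genes were. They comprised all 5 IRGs and, of the GBPs, Gbp7. Igtp had 18.9 CPM in young ICH and 38.1 CPM in aged ICH (log2FC 1.01 ± 0.35, unadjusted *P* = 0.0134, adjusted *P* = 0.395, edgeR), and Gbp7 26.6 and 51.7 CPM (0.96 ± 0.24, unadjusted *P* = 0.00199, adjusted *P* = 0.228). The log2FC of the others was 0.91 ± 0.29 for Tgtp2 (adjusted *P* = 0.359), 0.78 ± 0.33 for Iigp1 (adjusted *P* = 0.491), 0.73 ± 0.28 for Irgm1 (adjusted *P* = 0.443) and 0.70 ± 0.23 for Irgm2 (adjusted *P* = 0.362). In each of the 6 every aged ICH sample was above every young ICH sample, as in 6.90% of all genes. Gbp2, Gbp3, Gbp5 and Gbp6 had log2FC of 0.41 to 0.50 with overlapping samples. The median log2FC was 0.78 over the 5 IRGs and 0.45 over the 5 GBPs, and this difference between the families was not tested.

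None of the 6 passed the adjusted threshold, and the lowest adjusted *P* was 0.228, for Gbp7, which DESeq2 gave as 0.0150. Only 0.0372% of all genes passed it in this direction. Without the first aged ICH sample Gbp7 was the only DEG among the 10 genes, and without the second, in which most GTPases were lowest, 7 were DEGs.

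The difference of the 2 responses, log2FC in aged mice minus log2FC in young mice, asks whether ICH acted differently with age. It was above 0 for all 10 genes, from 0.16 for Gbp3 to 0.77 for Iigp1, with a median of 0.39. None of the 10 was a DEG by this difference in edgeR or DESeq2, where 0.484% of all genes were in this direction, and none had an unadjusted *P* under 0.05 in edgeR. Gbp7 had the smallest unadjusted *P*, 0.0884 (difference 0.64 ± 0.34, interval -0.11 to 1.39, edgeR), and its adjusted *P* was 1.0, as for the other 9 genes. Irgm2 and Igtp, which were DEGs in aged and not in young mice, had differences of 0.39 ± 0.32 and 0.76 ± 0.50, so the test did not show that their responses differed with age. Without the first aged sham sample, 3 genes passed the threshold of a DEG, Gbp7, Igtp and Iigp1.

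The 10 genes varied together, Tgtp2 less closely than the rest. Over the 12 samples, the median Pearson correlation of log2 CPM among the 45 pairs was 0.94, with a range from 0.56 to 0.98. After the group means were subtracted, the median correlation of the deviations was 0.88 and the range 0.40 to 0.99. Tgtp2 had a median correlation of 0.68 with the other members, while the rest had 0.92 to 0.96. For the deviations its median was 0.47, against 0.81 to 0.93 for the rest. These correlations describe samples that share library, depth and tissue piece, and Igtp, Irgm2 and some GBPs can share reads. The genes outside the list whose log2 CPM followed the mean of the 10 most closely over the 12 samples were Oas1b (r = 0.99), Tap1, Parp9, Irf9, Ddx58, Trim30a, Trip10 and Psmb8 (r = 0.98). Oas1b belongs to the 2′-5′-oligoadenylate synthetase family, Ddx58 encodes the RNA sensor RIG-I, Tap1 and Psmb8 serve antigen presentation, and Irf9 is the DNA-binding subunit of the ISGF3 complex. Mean Oas1b levels were 2.28 CPM in young sham, 4.58 in young ICH, 2.73 in aged sham and 7.43 in aged ICH, and those of Tap1 were 7.14, 15.5, 10.5 and 27.0 CPM in the same order.

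The pathway upstream of the GTPases was examined from ligand to transcription factor. Transcripts of the interferons themselves were near or below the detection limit. Ifng, the gene of IFN-γ, had 0 or 1 count in each sample, Ifnb1 had at most 2, and Ifna1, Ifna2, Ifna4, Ifna5, Ifnl2 and Ifnl3 had at most 2. At these depths a count of 0 allows up to 0.0794 to 0.106 CPM (3 counts per library), for counting error only, so changes in the ligands were not detectable. Of the 11 ligand and inducer genes 2 could be tested, Il12a and Il18, and neither was a DEG in any comparison. Of the 7 receptor and kinase genes none was a DEG, although 3 in young and 2 in aged mice were higher with an adjusted *P* under 0.05. Of all genes, 9.89% in young and 7.00% in aged mice were. Ifngr1, a chain of the IFN-γ receptor, had a log2FC of 0.55 (adjusted *P* = 0.00347) in young and 0.43 (adjusted *P* = 0.0145) in aged mice, below the fold required.

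Of 8 transcription factors that act on GTPase promoters, 2 were upregulated in young mice and 7 in aged mice, where 8.66% and 7.24% of all genes were. Their median log2FC was 0.55 in young and 1.0 in aged mice. In aged mice, the smallest adjusted *P* were those of Stat2 (log2FC 1.10, adjusted *P* = 0.00661), Irf1 (0.96, adjusted *P* = 0.00915) and Irf8 (0.62, adjusted *P* = 0.0126), followed by Irf9 (0.97) and Batf2 (1.65). In young mice the DEGs were Batf2 (log2FC 1.45, adjusted *P* = 0.0344) and Irf9 (0.66, adjusted *P* = 0.0522), while Irf1 had 0.37 (adjusted *P* = 0.180). In aged ICH vs. young ICH 5 of the 8 were upregulated DEGs, where 2.21% of all genes were. Irf1 came first (log2FC 0.84, adjusted *P* = 0.161, edgeR), and none of the 8 passed the adjusted threshold there. None of the 8 was a DEG by the difference of the responses.

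Other interferon-inducible GTPases numbered 16, of which 14 were tested. In young mice 2 were upregulated, Gm4951 and Ifi47, and in aged mice 9, where 8.66% and 7.24% of all genes were. With an adjusted *P* under 0.05 (edgeR), 1 was higher in young and 3 were higher in aged mice, against 9.89% and 7.00% of all genes. Gm4951 had a log2FC of 0.98 (adjusted *P* = 0.0361) in young and 1.26 (adjusted *P* = 0.0161) in aged mice, and Mx2, an antiviral dynamin-like GTPase, 0.41 (adjusted *P* = 0.532) and 1.64 (adjusted *P* = 0.0258). The median log2FC of the 14 was 0.49 in young and 1.09 in aged mice. In aged ICH vs. young ICH 7 were upregulated, among them Gbp9, Mx2 and Mx1, where 2.21% of all genes were. None of these passed the adjusted threshold there. The DEG by the difference of the responses was F830016B08Rik, with a log2FC of -0.77 in young and 1.31 in aged mice, both with an adjusted *P* above the threshold. Its difference had an unadjusted *P* of 0.0198 (edgeR) and did not pass the adjusted threshold either. The gene was at low levels, with group means from 0.223 CPM in young ICH to 0.589 CPM in aged ICH.

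Target genes typical of each interferon were compared next. Of 14 IFN-γ target genes tested, 7 were upregulated and 1 downregulated (Ido1) in young mice and 8 upregulated in aged mice, with median log2FC of 0.82 and 1.09. The antigen transporter gene Tap2 rose at both ages, by 1.06 (adjusted *P* = 0.00274) in young and 0.97 (adjusted *P* = 0.00641) in aged mice in log2FC. Of 16 type I IFN target genes, 3 were upregulated in young mice, Oas2, Rsad2 and Oas1a, and 15 in aged mice, with median log2FC of 0.56 and 1.25. Among all genes tested, 8.66% were upregulated in young and 7.24% in aged mice. With an adjusted *P* under 0.05 (edgeR), 1 type I target was higher in young mice and 9 were in aged mice. Of all genes, 9.89% in young and 7.00% in aged mice met this criterion. For the IFN-γ targets the counts were 6 and 8. Rsad2, which encodes the antiviral enzyme viperin, had a log2FC of 1.06 (adjusted *P* = 0.127) in young and 1.79 (adjusted *P* = 0.0242) in aged mice. In aged ICH vs. young ICH, 12 of the 16 type I targets and 5 of the 14 IFN-γ targets were upregulated, as were 2.21% of all genes. None of these targets had an adjusted *P* under 0.05 there (edgeR). No gene of either list was a DEG by the difference of the responses, although all 16 type I targets had a difference above 0, with a median of 0.68.

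Partners of the GTPases were examined last. Of 8 inflammasome genes 5 were upregulated at each age, where 8.66% of all genes were in young and 7.24% in aged mice. Casp4, the mouse gene of caspase-11, had a log2FC of 1.35 (adjusted *P* = 0.0264) in young and 1.27 (adjusted *P* = 0.0387) in aged mice, and Nlrp3 had 1.17 (adjusted *P* = 0.0233) and 1.03 (adjusted *P* = 0.0447). Of the genes of the ATG conjugation system, which helps to bring GBPs and IRGs to vacuoles, none of 10 was a DEG at either age in edgeR. Ube2l6, listed with them but encoding the conjugating enzyme of ISG15, was upregulated in aged mice (log2FC 0.87, adjusted *P* = 0.0449). Of 7 negative regulators tested, Socs3 and Socs1 were upregulated in young mice, and Socs3, Usp18 and Socs1 in aged mice. The shares of all genes were again 8.66% and 7.24%. Socs1 was also counted among the IFN-γ targets, and Usp18 among the type I IFN targets. Socs3, a feedback inhibitor of cytokine receptors, had the largest log2FC of the negative regulators at both ages, 2.17 (adjusted *P* = 0.00460) and 1.81 (adjusted *P* = 0.0137).

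**Figure D4:**
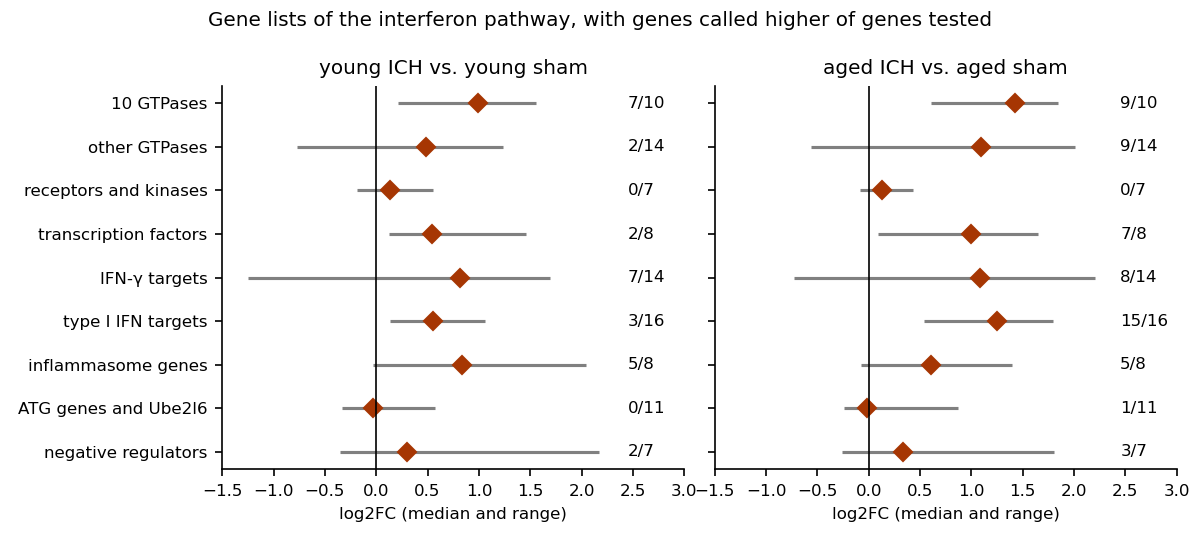
Median (diamond) and range (line) of log2FC for the 10 GTPases and for 8 gene lists of the interferon pathway in young ICH vs. young sham and aged ICH vs. aged sham; the numbers at the right give upregulated DEGs of genes tested. Type I IFN targets had 3 of 16 in young and 15 of 16 in aged mice, and the 10 GTPases 7 of 10 and 9 of 10. DEGs are by fold and unadjusted P, which 8.66% of all genes met in young and 7.24% in aged mice. With an adjusted P under 0.05 (edgeR), the type I IFN targets had 1 higher in young and 9 in aged mice, against 9.89% and 7.00% of all genes.

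Markers of cell types were summed in CPM to show what else differed between samples. In bulk tissue, fewer cells of a type and less RNA per cell cannot be told apart. All 9 markers of striatal projection neurons were measured in every group, in keeping with the labelled tissue, and their sum ranged widely, from 1774 to 3024 in young sham, 513 to 1725 in young ICH, 1513 to 2640 in aged sham and 325 to 1912 in aged ICH. Within aged ICH it was 325, 1912 and 741, while the summed CPM of the GTPases was 447.5, 271.6 and 381.8, so the sample with most striatal transcripts had least GTPase transcripts. Within aged sham, the second sample combined the highest striatal sum of that group, 2640, with the lowest GTPase sum, 74.6. In young ICH the highest GTPase sum, 274.4, went with the highest striatal sum, 1725.

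Monocyte and macrophage markers, 8 of 8 tested, summed to 51.8 to 56.0 CPM in young sham, 98.6 to 140.3 in young ICH, 52.3 to 99.4 in aged sham and 137.1 to 150.9 in aged ICH. Neutrophil markers, 7 of 8 tested, summed to 11.1 to 13.7, 21.9 to 39.4, 16.1 to 25.6 and 39.5 to 54.3 CPM in the same groups. Both sums were higher in ICH than in sham of the same age, as those of the GTPases were. The 8 endothelial markers also summed higher, at 440.9 to 454.0 CPM in young ICH against 322.5 to 388.1 in young sham. In aged mice they summed to 402.8 to 480.8 in ICH and 353.2 to 401.7 in sham. Astrocyte sums were higher after ICH in young mice and overlapped in aged mice. Oligodendrocyte sums overlapped in young mice and were lower after ICH in aged mice. Vcan, a monocyte and macrophage marker, had a log2FC below 0 at both ages (-0.16 in young and -0.21 in aged mice). The difference of the responses, aged minus young, was above 0 for all 10 GTPases. It was above 0 for 0 of the 8 monocyte and macrophage markers (median -0.55) and 0 of the 7 neutrophil markers tested (median -0.65). The same held for 0 of the 8 endothelial (-0.17), 0 of the 8 astrocyte (-0.19) and 0 of the 8 oligodendrocyte markers (-0.46). This difference was above 0 for 5 of the 6 choroid plexus (median 1.08), 3 of the 8 microglia and 1 of the 9 striatal projection neuron markers. Over all genes tested its median was -0.0051. The 8 microglia markers summed to between 288.4 and 354.2 CPM in all samples, with 2 of them downregulated after ICH at each age. Of the 21495 genes tested, 751 were downregulated in young and 607 in aged mice. T cell markers, 7 of 8 tested, summed to 28 to 42.1 CPM in young sham, 16.2 to 31.1 in young ICH, 25.9 to 35.8 in aged sham and 11.0 to 25.1 in aged ICH. This sum was mostly Cd4, at 24.0 CPM in young sham and 11.5 in young ICH, whereas 5 of the 7 markers tested (Cd3e, Cd3g, Cd2, Cd8a and Lck) were upregulated in young ICH vs. young sham and none in aged ICH vs. aged sham, where Cd4 was downregulated. Of all genes, 8.66% were upregulated in young and 7.24% in aged mice. Of the 7 NK cell markers 2 passed the filter on low counts. Choroid plexus markers ranged from 9.62 to 4054 CPM, with high sums in the third young ICH sample and in the first and second aged ICH samples. No marker of these lists was at 0 in all samples. The part of these cell types in the GTPase differences was not tested.

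**Figure D5:**
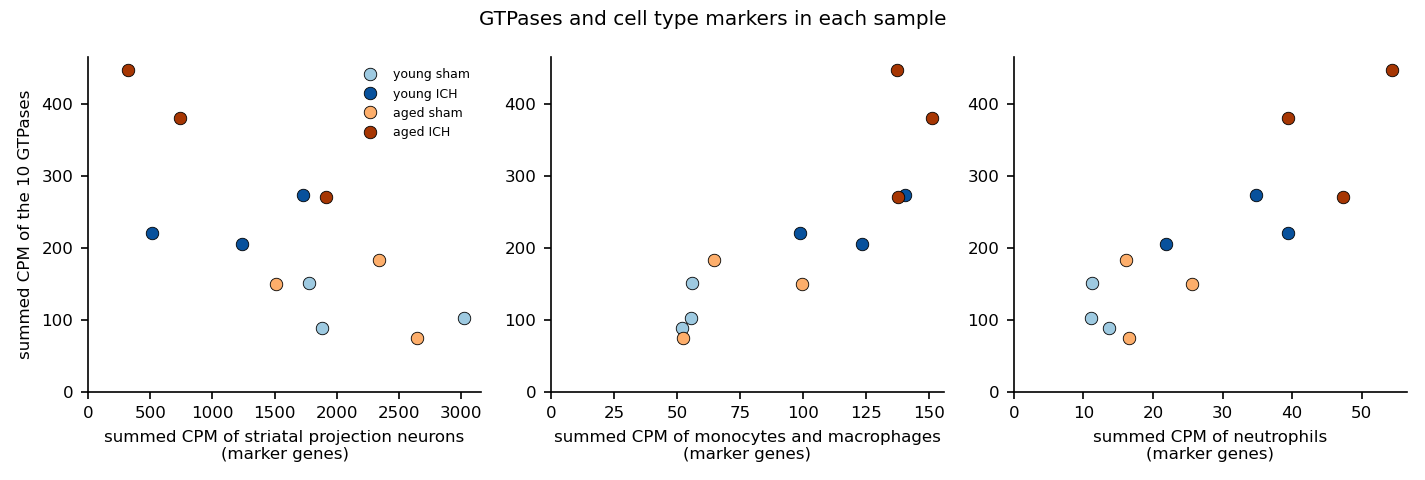
Summed CPM of the 10 GTPases (vertical axis) against the summed CPM of marker genes of striatal projection neurons, monocytes and macrophages, and neutrophils (horizontal axes), with a point for each of the 12 samples. Both ICH groups lie above their sham groups on the vertical axis, and the monocyte and neutrophil sums are also higher in ICH than in sham of the same age.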

How the data were processed

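RNA-seq counts and FPKM of 12 samples, 3 in each of 4 groups taken from the sample labels, were used. The authors used Hisat2 (GRCm38.p6) for alignment and FeatureCounts for counting, and deposited raw counts of 54833 genes next to their FPKM, which are scaled to transcript length and mapped fragments. Strand setting and multi-mapping are not given in the sources used here. All sample columns were assigned, and 387 rows with an identifier but no gene symbol were kept in the fit.

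Counts were tested with edgeR 4.0.16 (quasi-likelihood F test, TMM scaling, R 4.3.3) in a fit of all 12 samples, for 21495 genes kept by filterByExpr (minimum count 10). DEGs were defined by the thresholds of the study, a fold above 1.5 or below 0.67 with unadjusted *P* < 0.05, and Benjamini-Hochberg adjusted values cover all genes tested. CPM use the scaled library sizes without a prior count, and log2 CPM for correlations used a prior count of 2. DESeq2 1.42.0 and limma 3.58.1, other scalings, no filter, a replicate block and leaving out each sample were alternatives. The scripts were tested on simulated data. Protein motifs were not analysed here, and a listed transcription factor is not reported by name. The members and the gene lists were chosen with earlier results of these data known. All 10 members are named, together with up to 6 called genes of each list by smallest *P*, the genes that share reads with members, and the 8 genes most like them; other list genes named (the ligands, Irf1 and Mx2 in young mice, Ifngr1, and F830016B08Rik) were added after their values were seen.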

Additional observations from a re-analysis of the deposited data

How the results depend on the processing

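Of the log2FC recomputed for the 10 GTPases in the alternatives, 972 kept their direction and side of the threshold, 20 fell below it, 28 rose above it and 20 changed sign. Leaving out 1 sample at a time gave 6 to 9 DEGs in young ICH vs. young sham, 9 to 10 in aged ICH vs. aged sham, 0 to 2 in aged sham vs. young sham, 1 to 7 in aged ICH vs. young ICH and 0 to 3 by the difference of the responses. With an adjusted *P* under 0.05 in place of the DEG criterion, 0 were called in aged ICH vs. young ICH by edgeR (1 by DESeq2, Gbp7). Without the low-count filter 1 gene was called by the difference of the responses, Gbp7. Tgtp2 changed sign in young ICH vs. young sham when 1 sample was left out (log2FC -0.0365 to 0.369) and in the alternative chosen after the data had been seen, without the second sham sample of both ages (-0.0366), where the difference of the responses of Gbp3 was also negative (-0.0919). In aged sham vs. young sham, leaving out 1 sample gave log2FC of -0.102 to 0.597 for Gbp2, -0.0747 to 0.593 for Gbp3, -0.0991 to 0.348 for Gbp5, -0.0812 to 0.446 for Gbp6, -0.101 to 0.633 for Igtp and -0.370 to 0.288 for Iigp1. In the difference of the responses it gave -0.163 to 0.537 for Gbp2 and -0.180 to 0.488 for Gbp3. The cause was not tested. Depth limits the interferon ligands most, and among the 10 GTPases Tgtp2 and Gbp6 had the fewest counts.

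Replicate numbers are shared by the groups, but nothing in the labels ties samples of the same number. Over genes, the deviations of same-numbered samples from their group means correlated between -0.45 and 0.23, with both signs. The fit with a replicate block called 8, 9, 0 and 6 genes in the 4 comparisons and 2 by the difference of the responses (Gbp7 and Iigp1), and gave Iigp1 a log2FC of -0.00902 in aged sham vs. young sham.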
